A study of Mus musculus with 32 samples.

Results

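The endothelial cells of the liver were followed through 10 marker genes: Stab1, Stab2, Lyve1, Clec4g, Fcgr2b, Pecam1, Vwf, Cd34, Plvap and Acvrl1. They were chosen by gene symbol, as known markers of sinusoidal or vascular endothelium, and all 10 were found once each among the 41585 gene entries of the female and of the male table of liver RNA counts. The choice was made with earlier results of these data known, so counts of markers beside the share of all genes are descriptions. The genes were sequenced in whole liver of wildtype (WT) mice and of Cyp2b-null mice, which lack Cyp2b9, Cyp2b10 and Cyp2b13. Both were C57BL/6 mice, 10 weeks old at the start, and were given a normal diet (ND) or the CDAHFD for 8 weeks. The CDAHFD is a high-fat diet made from L-amino acids, without choline and with 0.1% methionine and 62% fat, and is used as a dietary model of steatohepatitis. Each combination of sex, genotype and diet had 4 libraries, so there were 8 groups and 32 libraries. The Cyp2b-null mice came from a CRISPR/Cas9-made colony on the C57Bl/6J background and the WT mice were bought, so that genotype and origin of the mice cannot be told apart. Replicates are separate libraries of a group, and the p-values measure the spread between them.

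The hepatic sinusoid is lined by endothelial cells that have open pores (fenestrae) and little basement membrane, and that clear hyaluronan, modified proteins and immune complexes from portal blood through scavenger and lectin receptors. The endothelium of larger vessels and of ordinary capillaries has other surface proteins and lies on a continuous basement membrane. A change of sinusoidal endothelium toward that of capillaries, with loss of fenestrae and gain of matrix, is a known part of chronic liver injury. Of the 10 markers, Stab1, Stab2, Lyve1, Clec4g and Fcgr2b encode receptors of the sinusoidal lining, Cd34, Plvap, Vwf and Pecam1 are used for vascular or general endothelium, and Acvrl1 encodes ALK1, a receptor of BMP9.

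The start sites of 3 markers are shown because these genes stood for the range of responses to the diet: Cd34 was higher on the CDAHFD in every sex and genotype, Clec4g was lower in WT females, and Stab2 was called in 1 of the 4 diet comparisons. The RefSeq promoter table of GRCm38.p6 held 5 of the 10 markers, and the windows below are the parts upstream of each gene's outermost start, written 5′ to 3′ on the strand of the gene. They lie at chr1:194938571-194938818 (plus strand) for Cd34, at chr8:3720696-3720901 (minus strand) for Clec4g and at chr10:87008039-87008192 (minus strand) for Stab2. Capitals mark the letters AGGAAG, a form of the sites for ETS factors, or the reverse complement of it.
Cd34: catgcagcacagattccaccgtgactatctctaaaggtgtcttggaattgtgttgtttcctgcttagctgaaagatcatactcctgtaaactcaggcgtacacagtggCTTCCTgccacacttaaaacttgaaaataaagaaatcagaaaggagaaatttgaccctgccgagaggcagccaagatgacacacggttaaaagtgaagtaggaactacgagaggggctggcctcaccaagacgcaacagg
Clec4g: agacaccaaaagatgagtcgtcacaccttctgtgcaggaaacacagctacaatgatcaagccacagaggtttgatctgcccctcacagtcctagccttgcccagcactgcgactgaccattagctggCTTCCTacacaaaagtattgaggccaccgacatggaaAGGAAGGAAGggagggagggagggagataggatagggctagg
Stab2: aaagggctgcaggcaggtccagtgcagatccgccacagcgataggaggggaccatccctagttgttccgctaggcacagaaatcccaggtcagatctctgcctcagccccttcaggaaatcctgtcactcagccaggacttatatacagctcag
The letters AGGAAG occurred on either strand 1 time in the 248 bases of Cd34, 3 times in the 206 bases of Clec4g, where 2 of the matches overlap, and 0 times in the 154 bases of Stab2. Windows of these lengths held AGGAAG in 29.3%, 24.5% and 18.6% of all 32851 promoters. The letters AGATAA, a form of the sites that factors of the GATA family bind, were in none of the 3 windows. They were in 9.93%, 8.65% and 6.72% of all promoters at the lengths of the windows of Cd34, Clec4g and Stab2. The same holds for the letters CACCC, which Krüppel-like factors bind, against 51.8%, 45.5% and 36.0% of all promoters. It also holds for GGCGCC, a box bound by SMAD1 and SMAD5 below ALK1, against 9.48%, 7.45% and 5.05%. These are matches of letters and were not set against any measurement of binding. Other forms of the sites were not counted, so 0 matches do not mean that a window has no site for these factors.

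The total count of a library ranged from 2906411 to 10166959, and 3 counts, the floor used for a gene, came to 0.247 to 1.17 CPM (counts scaled to a common library size, with factors from the trimmed mean of M-values, TMM). The TMM factors were 0.834 to 0.956 in ND-fed and 0.980 to 1.30 in CDAHFD-fed mice, so that the scaling itself moved with the diet. The deleted genes had at most 18 counts in any Cyp2b-null library, whereas Cyp2b9 had 1371 to 3530 counts in ND-fed WT females. In ND-fed WT males Cyp2b9 had 0 to 15 counts, and there the check of genotype rests on Cyp2b10, whose counts were 33 to 97 in WT males and 1 to 9 in males without the gene. The study left replicate 3 of the CDAHFD-fed Cyp2b-null females and replicate 4 of the CDAHFD-fed Cyp2b-null males out of its heat maps, and both are included here unless stated. All 10 markers passed the low-count filter, among 13226 genes tested in females and 13460 in males. Cd34, with 0 to 17 counts per ND-fed library, passed it mainly through the CDAHFD-fed libraries, where it was higher. Whole liver was sequenced, so fewer cells of a type and less RNA per cell cannot be told apart.

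Levels between genes were compared per kilobase of exon, as mean CPM per kb in ND-fed WT mice. Clec4g, the lectin LSECtin, was at 29.5 in females, and Plvap, the protein of the diaphragms of endothelial pores and caveolae, was at 26.7, with overlapping ranges. Fcgr2b, the inhibitory receptor for IgG, followed at 7.92, apart from Plvap. Stab2 at 6.43 overlapped Fcgr2b, while Stab1 at 4.45 lay apart from Stab2 and overlapped Pecam1 at 3.87, which overlapped Lyve1 at 3.33. Acvrl1 at 0.816 was apart from Lyve1, and Vwf at 0.195 and Cd34 at 0.167 were lowest and overlapped each other. In males Clec4g was again highest per kb (18.3), followed by Plvap (10.6), Stab2 (6.02), Fcgr2b (5.51), Stab1 (4.12), Pecam1 (2.74) and Lyve1 (2.26), each overlapping the next, with Acvrl1 (0.745) apart and Vwf (0.268) and Cd34 (0.158) lowest. The receptors of the sinusoidal lining and Plvap thus lay above the vascular markers Vwf and Cd34 in both sexes. The female and male tables were scaled separately, and levels were not tested between sexes.

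**Figure D1:**
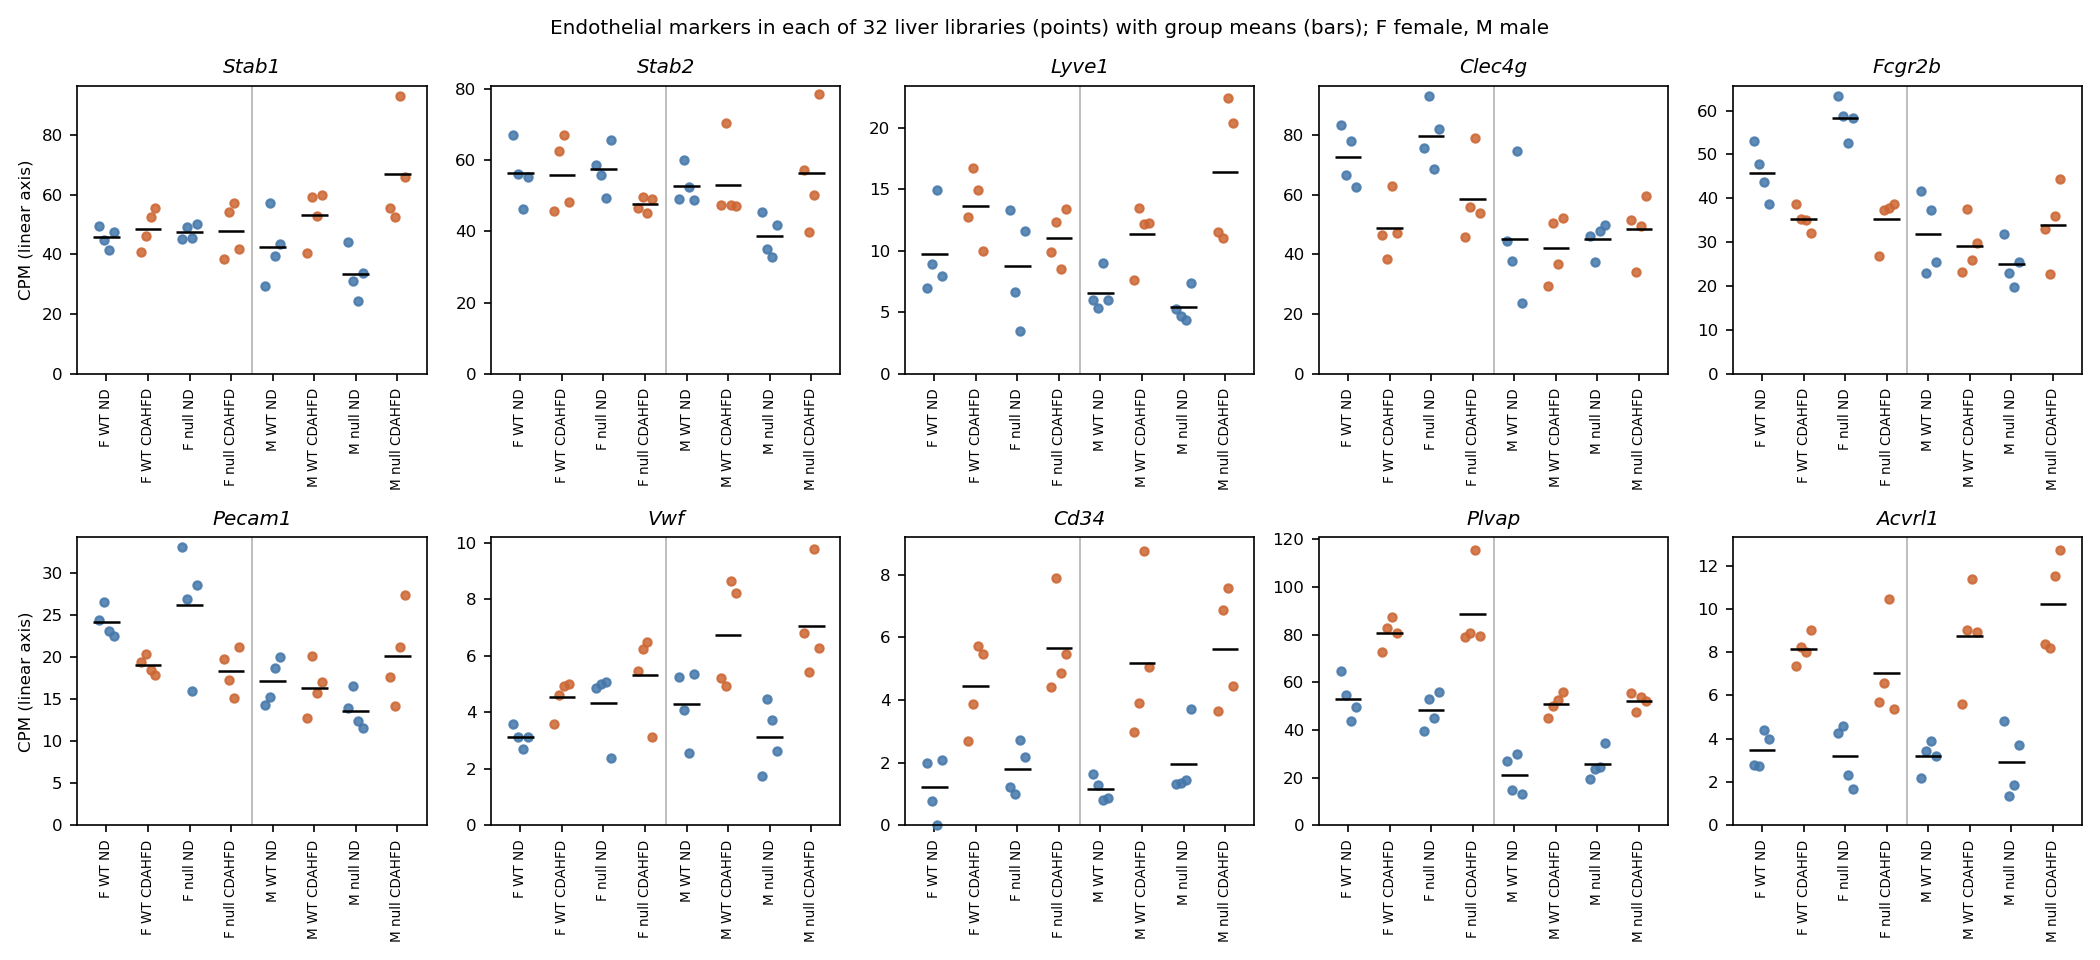
CPM of the 10 endothelial markers (vertical axes, linear, from 0) in each of the 32 liver libraries (points) and the mean of each group of 4 (bars). Blue points are ND-fed and orange points CDAHFD-fed mice. Acvrl1 and Plvap on the CDAHFD lie above all ND-fed mice of the same sex and genotype in all 4 comparisons, and Cd34 does so in 3 of 4.

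Cd34, Plvap and Acvrl1 were higher on the CDAHFD in both sexes and both genotypes, and they were the only markers called in all 4 diet comparisons. Calls of the other markers were made in some comparisons, without a difference between genotypes in the diet effect that passed its test for any marker: Clec4g was lower in WT females, Fcgr2b and Pecam1 were lower in Cyp2b-null females, Lyve1 was higher in males of both genotypes, and Stab1, Stab2, Vwf and Pecam1 were higher in Cyp2b-null males. By edgeR's quasi-likelihood test at an adjusted p under 0.05, WT females had 3 markers higher and 1 lower, against 13.9% of all genes tested called higher and 10.2% called lower. Cyp2b-null females had 3 higher and 2 lower (16.9% and 13.9% of all genes), WT males 4 higher and 0 lower (18% and 15%), and Cyp2b-null males 8 higher and 0 lower (20.3% and 17.1%). The median log2 fold change of the 10 markers was 0.30 in WT females, 0.16 in Cyp2b-null females, 0.51 in WT males and 1.02 in Cyp2b-null males, against medians over all genes tested of -0.0021, 0.0273, -0.0228 and -0.0083. When counts were scaled by library size only, without TMM, these medians over all genes became 0.32, 0.28, 0.37 and 0.36, the share of calls that were higher went from 57.6% to 88.8%, 55% to 85.8%, 54.6% to 89.8% and 54.3% to 86.3%, and the markers called were 6 higher and 0 lower, 3 higher and 1 lower, 6 higher and 0 lower, and 9 higher and 0 lower.

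**Figure D2:**
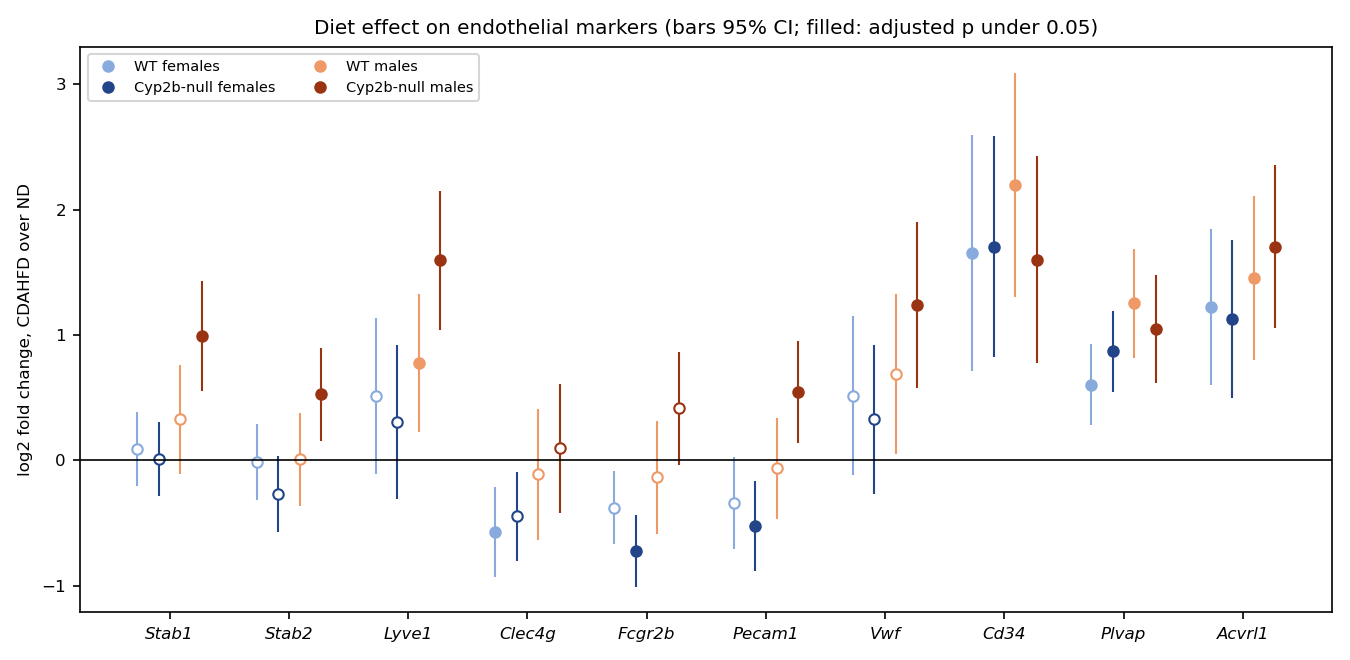
Log2 fold change of each endothelial marker on the CDAHFD over the ND (vertical axis) in WT and Cyp2b-null females and males, with 95% confidence intervals (bars). Filled points have an adjusted p under 0.05. Cd34, Plvap and Acvrl1 are filled and above 0 in all 4 comparisons.

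Cd34, a sialomucin of the surface of vascular endothelium and of haematopoietic progenitors, was among the least abundant markers on the ND, with Vwf. In WT females it was at 2.0, 0.779, 0 and 2.08 CPM on the ND and 2.68, 3.88, 5.74 and 5.48 CPM on the CDAHFD. In Cyp2b-null females it was at 1.21, 1.0, 2.73 and 2.19 CPM on the ND and 4.41, 7.89, 4.87 and 5.47 CPM on the CDAHFD. The diets did not overlap in either, and Cd34 rose by a log2 fold change of 1.65 ± 0.45 (SE; adjusted p = 0.0101) in WT and 1.70 ± 0.42 (adjusted p = 0.00448) in Cyp2b-null females. WT males had 1.63, 1.30, 0.808 and 0.859 CPM on the ND and 2.99, 3.89, 8.75 and 5.07 CPM on the CDAHFD. Cyp2b-null males had 1.31, 1.34, 1.45 and 3.71 CPM on the ND and 3.64, 6.87, 7.57 and 4.44 CPM on the CDAHFD. The diets were apart in WT males (2.20 ± 0.43, adjusted p = 0.000439), and in Cyp2b-null males the lowest CDAHFD-fed library lay just under the highest ND-fed library (1.60 ± 0.40, adjusted p = 0.0030). These values rest on 0 to 17 counts per ND-fed library and 12 to 92 per CDAHFD-fed library.

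Plvap was the most abundant marker that rose in every comparison. WT females had 64.6, 54.6, 43.7 and 49.5 CPM on the ND and 72.5, 82.7, 87.5 and 80.6 CPM on the CDAHFD. Cyp2b-null females had 39.5, 53.1, 44.8 and 55.9 CPM on the ND and 79.2, 80.6, 115.6 and 79.6 CPM on the CDAHFD. Every CDAHFD-fed female was above every ND-fed female of its genotype, and the rise was 1.52-fold in WT (log2 0.60 ± 0.16, adjusted p = 0.00687) and 1.83-fold in Cyp2b-null females (0.87 ± 0.16, adjusted p = 0.000267). In WT males Plvap was at 26.8, 14.6, 30.0 and 13.1 CPM on the ND and 44.8, 50.1, 52.5 and 56.1 CPM on the CDAHFD. In Cyp2b-null males it was at 19.6, 23.5, 24.4 and 34.4 CPM on the ND and 55.4, 47.4, 53.9 and 52.1 CPM on the CDAHFD. The diets were again apart, with rises of 2.38-fold in WT (1.25 ± 0.21, adjusted p = 8.42e-05) and 2.06-fold in Cyp2b-null males (1.05 ± 0.21, adjusted p = 0.000399).

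Acvrl1 encodes ALK1, the type I receptor through which endothelial cells respond to BMP9 and BMP10. It was at 2.80, 2.73, 4.41 and 3.98 CPM in ND-fed and 7.36, 8.25, 7.99 and 9.02 CPM in CDAHFD-fed WT females. Cyp2b-null females had 4.25, 4.61, 2.34 and 1.69 CPM on the ND and 5.71, 6.58, 10.5 and 5.35 CPM on the CDAHFD. No ND-fed female reached a CDAHFD-fed one of its genotype, and Acvrl1 rose 2.33-fold in WT (log2 1.22 ± 0.30, adjusted p = 0.00458) and 2.18-fold in Cyp2b-null females (1.13 ± 0.30, adjusted p = 0.00774). In males the ND-fed values were 2.17, 3.41, 3.91 and 3.22 CPM in WT and 4.81, 1.34, 1.86 and 3.71 CPM in Cyp2b-null mice. The CDAHFD-fed values were 5.60, 9.01, 11.4 and 8.91 CPM in WT and 8.38, 8.20, 11.5 and 12.7 CPM in Cyp2b-null males. These groups did not overlap either, and the rises were 2.74-fold (1.45 ± 0.31, adjusted p = 0.00116) and 3.26-fold (1.71 ± 0.31, adjusted p = 0.00018).

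Of the sinusoidal receptors, Clec4g fell on the CDAHFD in WT females. WT females had 83.4, 66.6, 78.0 and 62.7 CPM on the ND and 46.6, 38.3, 62.9 and 47.2 CPM on the CDAHFD. Cyp2b-null females had 75.6, 92.9, 68.6 and 82.0 CPM on the ND and 45.9, 55.7, 79.0 and 53.9 CPM on the CDAHFD. In both genotypes 1 CDAHFD-fed library lay within the ND-fed range, and the fall was 1.49-fold in WT females (log2 -0.57 ± 0.17, adjusted p = 0.0186), while the difference of -0.45 ± 0.17 in Cyp2b-null females missed the threshold (adjusted p = 0.0517) and passed it without replicate 3 of the CDAHFD-fed group, a library the study left out of its heat maps (-0.62, adjusted p = 0.00506). In all, 6 of 15 alternative fits called it in Cyp2b-null females. Among them were DESeq2 (-0.45, adjusted p = 0.0498) and edgeR without the low-count filter (-0.50, adjusted p = 0.0208). The call in WT females was lost without ND-fed replicate 1 (-0.50, adjusted p = 0.062), without CDAHFD-fed replicate 2 (-0.48, adjusted p = 0.0693) and under scaling by library size only (-0.26, adjusted p = 0.252). WT males had 44.5, 37.7, 74.5 and 23.8 CPM on the ND and 29.3, 50.3, 36.8 and 52.3 CPM on the CDAHFD, and Cyp2b-null males had 46.1, 37.3, 47.8 and 49.7 CPM on the ND and 51.4, 34.0, 49.3 and 59.6 CPM on the CDAHFD. The male groups overlapped, with log2 differences of -0.11 (95% confidence interval -0.63 to 0.41) in WT and 0.09 (-0.42 to 0.61) in Cyp2b-null mice.

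Plvap and Clec4g were also set against each other within each library, which needs no scaling between libraries. The ratio of Plvap to Clec4g counts was 0.522 to 0.819 in the ND-fed and 1.39 to 2.16 in the CDAHFD-fed females of both genotypes. In males it was 0.388 to 0.693 on the ND and 0.875 to 1.53 on the CDAHFD. Every CDAHFD-fed library was above every ND-fed library of the same sex, so the unequal change of these genes did not depend on the TMM factors. The ratio does not tell which of them changed, and it was formed after the levels of both genes were seen.

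**Figure D3:**
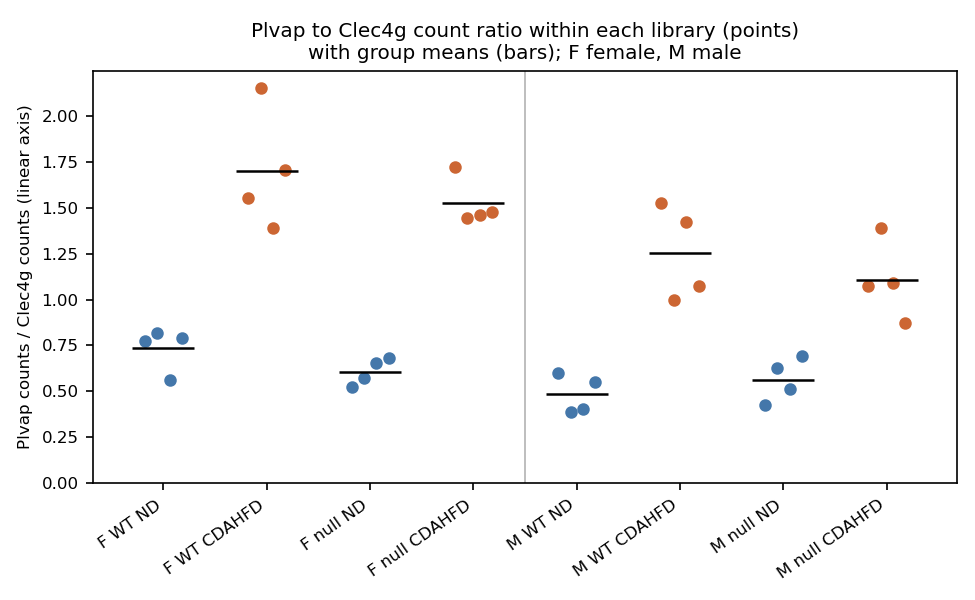
Ratio of Plvap to Clec4g counts (vertical axis, linear, from 0) in each of the 32 libraries (points) with the mean of each group of 4 (bars). Blue points are ND-fed and orange points CDAHFD-fed mice. The CDAHFD-fed libraries lie above the ND-fed libraries in both sexes, at 1.39 to 2.16 against 0.522 to 0.819 in females.

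Fcgr2b, which in liver takes up small immune complexes from the blood, fell on the CDAHFD in Cyp2b-null females. ND-fed females had 53.0, 47.9, 43.7 and 38.8 CPM in WT and 63.4, 58.9, 52.6 and 58.2 CPM in Cyp2b-null mice. CDAHFD-fed females had 38.8, 35.2, 35.05 and 32.1 CPM in WT and 26.7, 37.3, 37.9 and 38.8 CPM in Cyp2b-null mice. The Cyp2b-null groups were apart and Fcgr2b fell 1.65-fold (log2 -0.72 ± 0.14, adjusted p = 0.000477). In WT females the groups met at 38.8 CPM and the difference of -0.38 ± 0.14 missed the threshold (adjusted p = 0.0539), with a call by DESeq2 (adjusted p = 0.0455) and without the library left out of the heat maps (adjusted p = 0.0336). In males the values were 41.6, 22.9, 37.4 and 25.5 CPM on the ND and 23.1, 37.7, 26.0 and 29.9 CPM on the CDAHFD in WT mice, and 31.9, 23.0, 19.9 and 25.5 CPM and 32.9, 22.7, 35.9 and 44.4 CPM in Cyp2b-null mice. Both pairs of male groups overlapped (WT -0.14 ± 0.22, adjusted p = 0.671; Cyp2b-null 0.41 ± 0.22, adjusted p = 0.141).

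Lyve1, a hyaluronan receptor of sinusoidal and lymphatic endothelium that some macrophages also make, was higher in males on the CDAHFD. WT males had 5.97, 5.36, 9.02 and 6.01 CPM on the ND and 7.65, 13.5, 12.2 and 12.2 CPM on the CDAHFD. Cyp2b-null males had 5.25, 4.70, 4.35 and 7.41 CPM on the ND and 11.5, 11.1, 22.4 and 20.4 CPM on the CDAHFD. The Cyp2b-null groups were apart with a rise of 3.02-fold (log2 1.60 ± 0.27, adjusted p = 7.18e-05), and the WT groups overlapped with a rise of 1.71-fold (0.78 ± 0.27, adjusted p = 0.029), a call kept in 2 of the 8 fits that left out 1 library, those without ND-fed replicate 3 or CDAHFD-fed replicate 1 (0.68 to 0.74 in the other fits). Female values were 7.001 to 14.9 CPM on the ND and 9.99 to 16.7 CPM on the CDAHFD in WT, and 3.51 to 13.4 CPM and 8.48 to 13.4 CPM in Cyp2b-null mice. Those groups overlapped (0.51 ± 0.30, adjusted p = 0.233, and 0.31 ± 0.30, adjusted p = 0.463).

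Stab1 and Stab2 encode stabilin-1 and stabilin-2, scavenger receptors of the sinusoid, and stabilin-1 is made by some macrophages as well. Stab1 was at 41.4 to 49.4 CPM in ND-fed and 40.8 to 55.4 CPM in CDAHFD-fed WT females, and at 45.2 to 50.1 CPM and 38.4 to 57.3 CPM in Cyp2b-null females. Their log2 differences were 0.09 (95% confidence interval -0.21 to 0.38) and 0.01 (-0.28 to 0.31). WT males had 29.3, 57.4, 39.5 and 43.4 CPM on the ND and 40.5, 59.1, 53.0 and 60.1 CPM on the CDAHFD, which overlapped (0.33 ± 0.21, adjusted p = 0.25). Cyp2b-null males had 44.2, 31.1, 24.4 and 33.8 CPM on the ND and 55.5, 52.7, 93.1 and 66.1 CPM on the CDAHFD. Those groups were apart, and Stab1 rose 1.99-fold (0.99 ± 0.21, adjusted p = 0.000797).

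Stab2 was called in Cyp2b-null males but not in females or WT males. It was at 46.4 to 67.2 CPM in ND-fed and 45.7 to 67.2 CPM in CDAHFD-fed WT females (log2 -0.02, 95% confidence interval -0.32 to 0.29), and at 48.9 to 60.1 CPM and 47.2 to 70.4 CPM in WT males (0.01, -0.36 to 0.38). Cyp2b-null females had 49.5 to 65.8 CPM on the ND and 45.3 to 49.8 CPM on the CDAHFD (-0.27, -0.57 to 0.03), with ranges that overlapped by the value of 1 library. In Cyp2b-null males Stab2 was at 45.4, 35.1, 32.7 and 41.9 CPM on the ND and 57.3, 39.9, 50.3 and 78.6 CPM on the CDAHFD. It rose 1.44-fold there (0.53 ± 0.18, adjusted p = 0.0246), and the call was lost without replicate 4, the CDAHFD-fed library with 78.6 CPM, which was left out of the heat maps (0.33, adjusted p = 0.131), and without ND-fed replicate 2 (0.48, adjusted p = 0.0691) or 3 (0.45, adjusted p = 0.0818).

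Vwf, the von Willebrand factor that large-vessel endothelium stores, and Pecam1, the junction protein CD31 of all endothelium, are also made by platelets and, for Pecam1, by leukocytes. Vwf was at 1.75, 4.47, 3.73 and 2.62 CPM in ND-fed and 6.80, 5.43, 9.79 and 6.26 CPM in CDAHFD-fed Cyp2b-null males, which were apart (2.36-fold, log2 1.24 ± 0.32, adjusted p = 0.00401). In WT males it was at 2.56 to 5.37 CPM on the ND and 4.91 to 8.64 CPM on the CDAHFD (0.69 ± 0.31, adjusted p = 0.093). Female levels overlapped, with 2.71 to 3.60 and 3.57 to 4.99 CPM in WT (0.52 ± 0.31, adjusted p = 0.245) and 2.36 to 5.07 and 3.11 to 6.49 CPM in Cyp2b-null mice (0.33 ± 0.29, adjusted p = 0.412). The platelet genes Pf4, Ppbp, Gp1ba and Gp9 had 0 to 4 counts in every library and were not tested. Itga2b, the other platelet gene listed, was tested and was not called in any diet comparison. Its log2 differences were -0.14 in WT and 0.01 in Cyp2b-null females, and 0.41 in WT and -0.36 in Cyp2b-null males.

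Pecam1 had opposite diet differences in the Cyp2b-null mice of each sex. Cyp2b-null females had 33.1, 26.8, 15.99 and 28.5 CPM on the ND and 19.7, 17.3, 15.1 and 21.1 CPM on the CDAHFD, a fall of 1.44-fold (log2 -0.52 ± 0.17, adjusted p = 0.026). Cyp2b-null males had 13.9, 16.6, 12.4 and 11.6 CPM on the ND and 17.6, 14.1, 21.2 and 27.3 CPM on the CDAHFD, a rise of 1.46-fold (0.55 ± 0.20, adjusted p = 0.0325). The diets overlapped in both, and each call was lost without the libraries left out of the heat maps, in females at -0.45 (adjusted p = 0.0573) and in males at 0.38 (adjusted p = 0.138). In all, 5 of the 8 fits that left out 1 library lost the call in each sex: in females those without ND-fed replicate 1, 2 or 4 or CDAHFD-fed replicate 2 or 3 (-0.52 to -0.41), and in males those without ND-fed replicate 1, 3 or 4 or CDAHFD-fed replicate 3 or 4 (0.38 to 0.55). WT females had 24.4, 26.5, 23.1 and 22.5 CPM on the ND and 19.4, 20.4, 18.4 and 17.9 CPM on the CDAHFD, which did not overlap, although the difference of -0.34 ± 0.18 was not called (adjusted p = 0.179). WT males were at 14.3 to 19.96 and 12.7 to 20.1 CPM (-0.06 ± 0.20, adjusted p = 0.834).

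The diets did not overlap for 4 of the 10 markers in WT females (1 lower, 3 higher), 4 in Cyp2b-null females (1 lower, 3 higher), 3 in WT males and 5 in Cyp2b-null males (all higher). Over all genes tested, 14.6% were apart and higher and 11.2% apart and lower in WT females, 16.3% and 14.2% in Cyp2b-null females, 15.9% and 12.5% in WT males and 19.8% and 17.0% in Cyp2b-null males.

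The diet effect of the sexes was compared in a joint fit of all 32 libraries, as the log2 fold change in males minus that in females. In WT mice 0 of the 10 markers differed, against 0.97% of the 14020 genes tested (136 genes by edgeR, 214 by DESeq2, and 1439 at an unadjusted p under 0.05), and the largest difference was 0.68 ± 0.27 for Plvap (adjusted p = 0.311). In Cyp2b-null mice 4 markers had a higher diet effect in males, against 2.09% of all genes. These were Fcgr2b (1.16 ± 0.26, adjusted p = 0.0106), Pecam1 (1.09 ± 0.26, adjusted p = 0.0161), Stab1 (1.0 ± 0.26, adjusted p = 0.0278) and Stab2 (0.82 ± 0.24, adjusted p = 0.045). Lyve1 differed by 1.31 ± 0.42 (adjusted p = 0.0717) and Vwf by 0.93 ± 0.43 (adjusted p = 0.232), without a call, whereas Cd34 (-0.08, 95% confidence interval -1.32 to 1.16), Plvap (0.20, -0.35 to 0.74) and Acvrl1 (0.60, -0.33 to 1.52) had intervals that include 0. The difference was called in 23 of 23 alternative fits for Fcgr2b, 22 of 23 for Pecam1, 16 of 23 for Stab1 and 7 of 23 for Stab2. For Stab1 the call was lost without ND-fed replicate 2 or 4 or CDAHFD-fed replicate 1 of the Cyp2b-null females, and without ND-fed replicate 2, 3 or 4 or CDAHFD-fed replicate 3 of the Cyp2b-null males (0.80 to 1.0), and for Stab2 in 13 of 16 fits that left out 1 library (0.63 to 0.88). Without both libraries left out of the heat maps it was 0.85 for Pecam1 (adjusted p = 0.0828) and 0.61 for Stab2 (adjusted p = 0.19), and without replicate 3 of the CDAHFD-fed Cyp2b-null males it was 0.80 for Stab1 (adjusted p = 0.102). Whether the difference between the sexes itself differed between WT and Cyp2b-null mice was not tested.

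**Figure D4:**
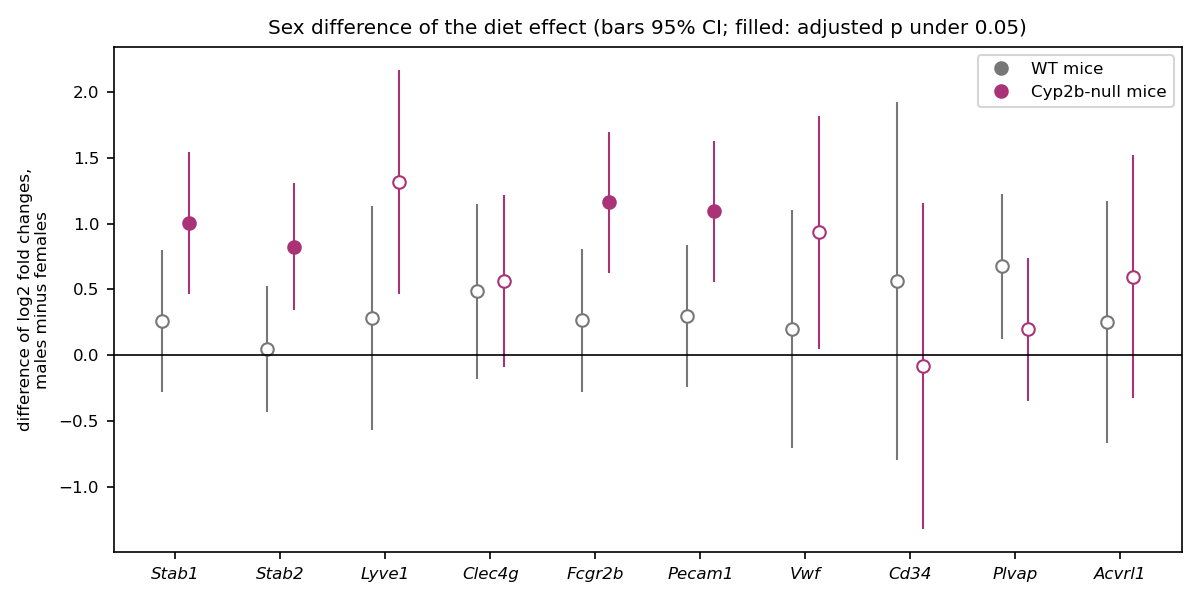
Difference of the diet effect between the sexes, as the log2 fold change in males minus that in females (vertical axis), for each endothelial marker in WT and Cyp2b-null mice with 95% confidence intervals (bars). Filled points have an adjusted p under 0.05. In Cyp2b-null mice Fcgr2b, Pecam1, Stab1 and Stab2 are filled, at 0.82 to 1.16.

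Between genotypes 0 of the 10 markers passed the threshold by edgeR or by DESeq2. On the ND, 0 markers were called in females, against 0.0756% of all genes (10 by edgeR, 21 by DESeq2, 760 at an unadjusted p under 0.05), and 0 in males, against 0.0371% (5, 61 and 1112). On the CDAHFD, 0 were called in females, against 0.0227% (3, 5 and 771), and 0 in males, against 0.0297% (4 by edgeR, 4 by DESeq2 and 487 at an unadjusted p under 0.05). The diet effect differed between genotypes for 0 markers in females, where 0% of all genes were called (0 by edgeR, 2 by DESeq2, 830 at an unadjusted p under 0.05), and for 0 in males, against 0.00743% (1, 3 and 817). The lowest unadjusted p-values for genotype on the ND were those of Stab2 in males, with Cyp2b-null below WT mice in all libraries (log2 -0.44, 95% confidence interval -0.81 to -0.06, adjusted p = 0.521), against 2.01% of all genes apart in that direction, and of Fcgr2b in females (log2 0.35, 0.06 to 0.64, adjusted p = 0.795). The differences between genotypes in the diet effect of males were 0.82 for Lyve1 (0.03 to 1.61, adjusted p = 0.82), 0.67 for Stab1 (0.05 to 1.28, adjusted p = 0.795) and 0.61 for Pecam1 (0.04 to 1.19, adjusted p = 0.81). These intervals leave room for differences of more than 2-fold for Lyve1, Stab1 and Pecam1 in males. Intervals of the same difference also reached past 2-fold for Stab2, Fcgr2b, Vwf, Cd34 and Acvrl1 in males. In females those of Lyve1, Vwf, Cd34 and Acvrl1 did so too.

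Other endothelial genes were counted in lists of known markers. These lists were also chosen with earlier results of these data known, so their counts beside all genes are descriptions. Of 14 further genes of sinusoidal endothelium 13 were tested, and on the CDAHFD 9 were lower and 0 higher in WT females, 9 lower and 1 higher in Cyp2b-null females, 5 lower and 1 higher in WT males, and 0 lower and 1 higher in Cyp2b-null males. Of all genes tested 10.2%, 13.9%, 15% and 17.1% were called lower. Without 1 library at a time, 7 to 9, 9, 3 to 6 and 0 to 1 of the list were lower, with 3 in WT males without ND-fed replicate 3 or CDAHFD-fed replicate 1 or 4. Ehd3, a membrane trafficking protein, fell in females (-1.15 ± 0.14, adjusted p = 4.89e-06, in WT), and Kdr, the receptor VEGFR2, fell most in Cyp2b-null females (-1.45 ± 0.18, adjusted p = 5.18e-06). In WT males the largest falls were those of Gpr182, a chemokine-binding receptor (-0.86 ± 0.24, adjusted p = 0.0089), and Kdr (-0.83 ± 0.24, adjusted p = 0.0106). The gene that rose was Clec1b, which encodes CLEC-2 and is also made by platelets and Kupffer cells (1.36 ± 0.23 in WT and 1.46 ± 0.23 in Cyp2b-null males). The median log2 fold changes of the list were -0.88, -0.89, -0.44 and -0.06 in the order given. Scaled by library size only, the counts of lower genes were 5, 8, 0 and 0 and those of higher genes 1, 1, 1 and 4, so the number that fell depended on the scaling in WT mice of both sexes.

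Of 17 genes used for endothelium in general 16 were tested, with 3, 7, 3 and 1 lower and 0 higher in WT females, Cyp2b-null females, WT males and Cyp2b-null males. The share in WT males was near the 15% of all genes called lower, and that in Cyp2b-null males was below 17.1%. Without 1 library at a time 2 to 4, 5 to 7, 2 to 4 and 0 to 1 were lower. Tek, the angiopoietin receptor TIE2 (-1.17 ± 0.25 in WT females), Ptprb, the phosphatase VE-PTP (-1.38 ± 0.21 in Cyp2b-null females), and Flt1, the receptor VEGFR1 (-1.30 ± 0.27 in WT males), fell most. The medians of this list were -0.57, -0.40, -0.30 and -0.05, and with scaling by library size only 1, 3, 2 and 0 genes were lower and 0, 1, 1 and 2 higher. In these lists Clec1b was the gene called higher with TMM scaling.

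Of the genes of capillary endothelium and its basement membrane, those called higher were 4 of 11 tested in WT females, 4 of 11 in Cyp2b-null females, 5 of 12 in WT males and 7 of 12 in Cyp2b-null males, with 1, 1, 1 and 0 lower, against 13.9%, 16.9%, 18% and 20.3% of all genes called higher. Nid1, the matrix linker nidogen-1, rose by 1.91 ± 0.23, 1.34 ± 0.23, 2.31 ± 0.23 and 2.54 ± 0.23. Col4a1, a chain of basement membrane collagen, rose by 1.79 ± 0.16 in WT females, 1.41 ± 0.16 in Cyp2b-null females and 2.21 ± 0.15 in Cyp2b-null males. Podxl, a sialomucin related to CD34, fell in females (-0.71 ± 0.23 in WT and -1.02 ± 0.22 in Cyp2b-null mice). Hepatic stellate cells make matrix genes too, and 4, 5, 4 and 6 of their 7 markers were higher, among them Col1a1 (3.35 ± 0.34 in WT females). Their part in the rise of the matrix genes was not tested.

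Of the adhesion and activation genes of endothelium, 3 of 7 tested were called higher in each female comparison and 4 of 6 in each male comparison, and 0 were called lower, against the same shares of all genes. Procr, the endothelial protein C receptor, rose by 2.24 ± 0.46, 3.04 ± 0.48, 2.87 ± 0.50 and 2.79 ± 0.49, and Icam1, a ligand for leukocyte integrins, by 1.89 ± 0.20 and 1.90 ± 0.20 in WT and Cyp2b-null females. Vcam1, another integrin ligand, rose by 2.62 ± 0.32 in WT males.

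**Figure D5:**
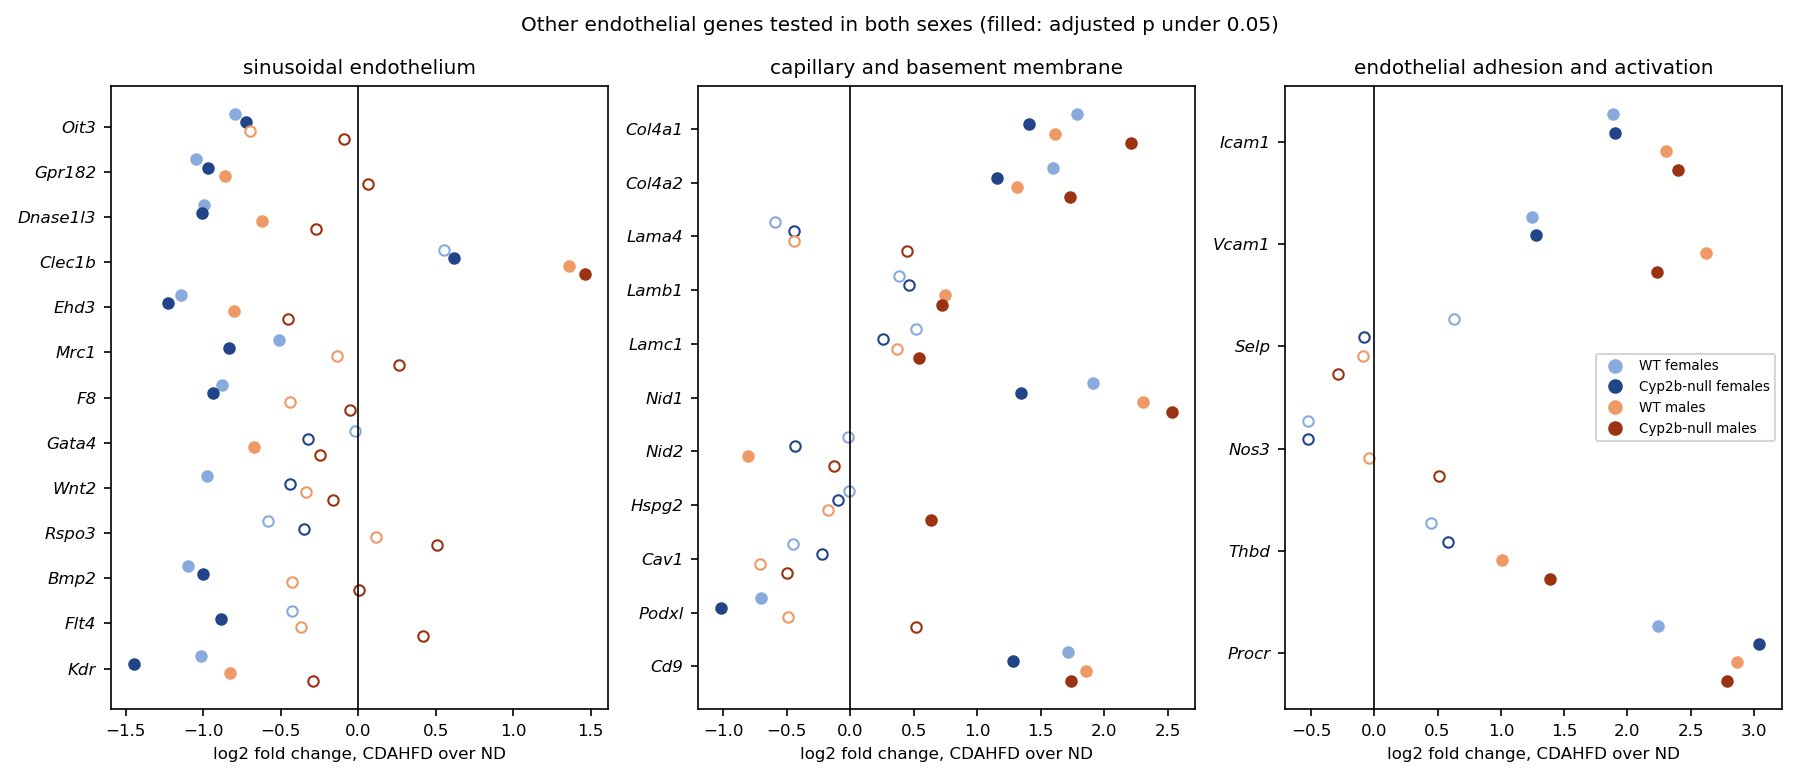
Log2 fold change on the CDAHFD over the ND (horizontal axes) of the other endothelial genes tested in both sexes, in WT and Cyp2b-null females and males. Filled points have an adjusted p under 0.05. The sinusoidal genes have medians of -0.88 and -0.89 in WT and Cyp2b-null females, -0.44 in WT males and -0.06 in Cyp2b-null males, while Nid1, Col4a1, Icam1, Vcam1 and Procr lie right of 0 in all 4 comparisons.

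The other genes of the ALK1 pathway were counted in the same way. Of 19 genes 16 were tested in females and 15 in males, and 1, 1, 1 and 2 were higher and 0, 2, 1 and 3 lower in WT females, Cyp2b-null females, WT males and Cyp2b-null males, against 13.9%, 16.9%, 18% and 20.3% of all genes called higher and 10.2%, 13.9%, 15% and 17.1% called lower. Without 1 library at a time the counts were 0 to 2, 0 to 1, 0 to 2 and 1 to 2 higher and 0 to 1, 2, 0 to 1 and 2 to 3 lower. The ligand gene Gdf2, which encodes BMP9 and is made mainly by stellate cells, rose in WT (0.47 ± 0.17, adjusted p = 0.0366) and Cyp2b-null males (0.64 ± 0.17, adjusted p = 0.00467). The type II receptor gene Acvr2a fell in Cyp2b-null females (-0.86 ± 0.18, adjusted p = 0.000945), WT males (-0.37 ± 0.13, adjusted p = 0.0358) and Cyp2b-null males (-0.98 ± 0.13, adjusted p = 4.14e-06). The gene called higher in females was Hey1, a transcription factor induced by BMP9 and by Notch, which had 0 to 3 counts in ND-fed and 4 to 10 in CDAHFD-fed WT females, and 1 to 5 and 6 to 19 in Cyp2b-null females, so that no fold is given. Smad6, an inhibitor induced by the pathway, rose in Cyp2b-null males (0.61 ± 0.23, adjusted p = 0.0392).

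Markers of other cells moved with the diet as well. The summed CPM of 12 macrophage genes was 424 to 701 in ND-fed and 1088 to 1731 in CDAHFD-fed females, and 171 to 348 and 904 to 2264 in males. Of the 11 tested, 7, 7, 9 and 9 were higher and 2, 1, 1 and 1 lower in WT females, Cyp2b-null females, WT males and Cyp2b-null males. Of all genes tested, 13.9%, 16.9%, 18% and 20.3% were called higher and 10.2%, 13.9%, 15% and 17.1% lower. Among the macrophage genes Gpnmb rose and Timd4 fell most, and Trem2 was at 0 in all groups. Whether Trem2 was absent from the livers or was not counted cannot be told from these values. For 6 of them the diet effect was higher in males than in females of Cyp2b-null mice (5 to 8 without 1 library at a time, against 2.09% of all genes), and for 4 in WT mice (against 0.67%). The count in WT mice was 2 without ND-fed female replicate 1 or 2, CDAHFD-fed female replicate 3 or ND-fed male replicate 2 or 4, 7 without ND-fed male replicate 3 and 8 without CDAHFD-fed male replicate 1. The part of macrophages in the values of Stab1, Lyve1 and Fcgr2b was not tested. Of 6 hepatocyte genes 5, 5, 6 and 4 were lower, and 0 higher, against 10.2%, 13.9%, 15% and 17.1% of all genes called lower. The lymphatic markers Ccl21a, Mmrn1 and Pdpn had 0 to 4 counts in every library. Prox1, the other lymphatic gene listed, was tested and was not called in any diet comparison. Its log2 differences were -0.23 in WT and -0.54 in Cyp2b-null females, and -0.28 in WT and -0.40 in Cyp2b-null males. The B cell genes, which share Fcgr2b, summed to 1.07 to 10.3 CPM.

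Apart from the group means, markers also varied together between libraries. Over the 32 libraries, as the correlation of deviations of log2 CPM from the group means and as a description only, Clec4g was most like Plvap among the markers (r = 0.697). Lyve1 and Pecam1 (0.661), Clec4g and Fcgr2b (0.635), Stab1 and Acvrl1 (0.533) and Stab2 and Fcgr2b (0.532) came next, and Stab2 and Vwf were least alike (-0.276). Among 10356 genes, those most like Stab2 were Adgrf5 (0.762), Ptprb (0.734) and Plxnc1 (0.705), and those most like Clec4g were the antisense transcript Gm16553 (0.805), Fcna (0.78) and Dnase1l3 (0.777). Those most like Vwf were Col6a3 (0.621), Tgfb1 (0.609) and Lilrb4a (0.585), and those most like Acvrl1 were Osgep (0.684), Clec12a (0.67) and Oxct1 (0.656). All points share library depth and the TMM factor.

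On GRCm38.p6 the markers lie on separate chromosomes except for Cd34 (1: 194938821-194961292) and Fcgr2b (1: 170960558-170976071), and for Clec4g (8: 3707066-3720695) and Plvap (8: 71497753-71511806). The others are Acvrl1 (15: 101128522-101145336), Lyve1 (7: 110850607-110862953), Pecam1 (11: 106654213-106715281), Stab1 (14: 31139017-31168651), Stab2 (10: 86841194-87008038) and Vwf (6: 125552948-125686679). The strand setting of the counting was not given in the sources used here, and 5 markers overlap another annotated gene, so that reads from the stretches shared with a partner cannot be told apart. The partners of Stab2 were not among the counted genes. The partner had 28.6% as many counts as Clec4g (Gm16553, antisense), 25.9% as many as Stab1 (Nt5dc2), 19.1% as many as Plvap (Gtpbp3) and 17.8% as many as Cd34 (Gm16897, antisense).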

How the data were processed

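Liver RNA was sequenced in 32 libraries (8 groups of 4), and each library is taken here as a separate mouse. The authors used Trimmomatic for trimming, GSNAP for alignment (mouse build GRCm38.p6) and featureCounts of Subread for counting, and the deposited values are raw counts per gene in a female and a male table of 16 libraries each. Tool versions, the strand setting and the treatment of multi-mapped reads were not given in the sources used here. The study had 9 mice per group, against 4 libraries per group, and samples were selected on RNA integrity. All sample columns were used (0 unused).

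Each table was fitted on its own, with its 4 groups, by edgeR's quasi-likelihood test (edgeR 4.0.16, limma 3.58.1, R 4.3.3): genes were filtered with filterByExpr (minimum count 10, minimum total 15), scaled by TMM and adjusted by Benjamini-Hochberg over all genes tested, with calls at an adjusted p under 0.05. Sex differences of the diet effect came from a fit of all 32 libraries. CPM were computed with edgeR from the TMM-scaled library sizes over genes that passed the filter. Total counts of 2906411 to 10166959 limit the precision of low genes, and floors cover counting error only. No 2 libraries of a group agreed within sampling noise (chi-square per degree of freedom 3.34 to 65.4 in 48 pairs). The fit of each sex was run on simulated counts with known changes in the WT diet comparison only. Equal numbers of genes were raised and lowered there, so the run cannot test the scaling that moved with the diet. It did not cover the fit of all 32 libraries, and its outcome is not reported here.

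The members and gene lists were chosen with earlier results of these data known. All 10 members were named; from each list at most the 2 largest rises and 2 largest falls among called genes per comparison were named, and for 5 members the 3 genes most like them, of which those for Cd34 are not reported here. Alternatives were another scaling (DESeq2's size factors, library size only), a fit of unfiltered genes, a replicate block, DESeq2 1.42.0, only the groups compared, the omission of the libraries the study left out of its heat maps (of the Cyp2b-null mice on the CDAHFD, replicate 3 of the females and replicate 4 of the males, kept here because no reason was given), and each library left out in turn.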

Additional observations from a re-analysis of the deposited data

Results flagged for a closer look

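In 5 of the 80 groups of 4 libraries (10 markers in 8 groups), 1 library lay far from the other 3, with a gap to its neighbour, as a share of the range of the group, above Dixon's 95% critical value; chance gives about 1 in 20. Stab2 was at 70.4 CPM in the highest CDAHFD-fed WT male, Fcgr2b at 26.7 CPM in the lowest CDAHFD-fed Cyp2b-null female, Vwf at 2.36 CPM in the lowest ND-fed Cyp2b-null female and Cd34 at 3.71 CPM in the highest ND-fed Cyp2b-null male. Plvap was at 115.6 CPM in the highest CDAHFD-fed Cyp2b-null female, replicate 3, which the study left out of its heat maps.

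The diet effect differed between the sexes in Cyp2b-null mice, as log2 fold change in males minus that in females, for Fcgr2b (1.16), Pecam1 (1.09), Stab1 (1.0) and Stab2 (0.82) by edgeR's quasi-likelihood test.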

How the results depend on the processing

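Of 2098 values of the markers under alternatives, 1936 kept direction and side of the threshold, 51 lost a call, 20 gained one and 0 called values changed sign; 91 values without a call changed sign. The diet calls of Cd34, Plvap and Acvrl1 held in all 15 alternatives of each comparison. Genes called for genotype on the ND in females were 122 without the filter and 21 by DESeq2 (10 in the report), on the CDAHFD in females 69 and 5 (3), and for the interaction in females 46 and 2 (0). On the ND in males they were 170 without the filter, 61 by DESeq2, 3 with library size only and 2 with only the groups compared (5), on the CDAHFD in males 51 without the filter and 2 without the libraries left out of the heat maps (4), and for the interaction in males 95 without the filter, 3 by DESeq2 and 2 with library size only (1). For the sex difference they were 469 without the filter, 214 by DESeq2 and 79 with only the groups compared in WT mice (136), and 923 without the filter and 245 without the left-out libraries in Cyp2b-null mice (477), where 2 markers in place of 4 were called. Without 1 library at a time the counts were 0 to 1 (interaction, females), 0 to 3 (interaction, males), 2 to 29 (genotype on the ND, males), 1 to 3 (genotype on the CDAHFD, males), 84 to 261 (sex difference, WT), 238 to 578 (sex difference, Cyp2b-null) and 2 to 5 markers. The causes were not tested. Library size only added Stab1, Lyve1 and Vwf in WT females (log2 0.41, 0.83 and 0.83), Stab1 and Vwf in WT males (0.73 and 1.10) and Fcgr2b in Cyp2b-null males (0.78). That scaling lost Clec4g in WT females (-0.26) and Pecam1 in Cyp2b-null females (-0.26). Counts of 0 to 17 limit Cd34 on the ND.

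Deviations from the group means correlated little between same-numbered libraries (r from -0.103 to 0.161 in females, 2 of 24 pairs over 0.1, and from -0.18 to 0.284 in males, 3 of 24). Libraries of unlike number were not compared, so this does not show whether the numbers pair the mice. With the replicate number as a block, 8 genes were called for genotype on the ND in males, Clec4g was called in Cyp2b-null females (-0.48, adjusted p = 0.0382 by edgeR) and the sex difference of Stab2 was not (0.82, adjusted p = 0.0541).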
